A study of Caenorhabditis elegans with 27 samples.

Results

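The replication-dependent core histone genes of Caenorhabditis elegans were examined as they appear in poly(A) RNA libraries: 60 genes, out of 20390 genes in each library's table, chosen by their sequence names because they lie in the clustered his loci. Whole worms of 4 strains were measured, all of which express the plant F-box protein TIR1, which sends degron-tagged proteins to the proteasome when auxin (1 mM indole-3-acetic acid) is present. In AM05 (top-1::degron::GFP) the tagged protein is topoisomerase I, in SS01A (top-2::degron::GFP) topoisomerase II, and in AM01 (dpy-27::degron::GFP) the condensin DC subunit DPY-27. The control was CA1200, in which nothing carries the degron. The strains are named below after the degraded protein. Auxin lasted 0, 30, 60 or 120 min in all strains but DPY-27, which has the times 0 and 120 min. There were 27 libraries in 14 groups of 2, apart from a lone library for CA1200 at 60 min. Worms were L2/L3 larvae, grown from starved hatchlings, except 1 mixed-stage library at each time in the DPY-27 strain. Groups are therefore populations of whole larvae, in which fewer dividing cells and less RNA per dividing cell cannot be told apart.

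Core histones H2A, H2B, H3 and H4 form the protein core of the nucleosome, and cells make most of them during S phase. In animals, including worms, the messenger RNAs of these genes end in a conserved stem-loop that is bound by the stem-loop binding protein (CDL-1 in worms) in place of a poly(A) tail. Oligo(dT) beads, used here to purify mRNA, therefore recover only that part of the histone RNA that carries a poly(A) stretch, and the values below describe that part.

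The 60 genes lie in 13 clusters named after the cosmids that cover them, with 27 genes on chromosome V, 20 on IV and 13 on II. By coding length in the WBcel235 annotation, 15 encode H2A, 15 H2B, 14 H3 and 14 H4. The remaining genes are C50F4.6, which has no histone symbol, and his-39, whose short reading frame matched no class. The largest cluster is ZK131, with 10 genes at II:13817689-13825774 (coordinates as the files give them, on a build not given in the sources used here). K06C4 holds 8 genes at V:8889465-8898623, F07B7 6 genes at V:8847370-8854031 and F45F2 5 genes at V:8532693-8536694. The C50F4 cluster at V:9544626-9547585 holds his-35 (H2A), his-37 (H4), his-41 (H2B) and C50F4.6.

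The annotation arranges most of these genes as divergent neighbours whose starts face away from each other. There were 28 such pairs, 15 of an H2A with an H2B gene and 13 of an H3 with an H4 gene, and the 2 genes of a pair lay 227 to 327 bases apart (median 265). In 55 of the 60 genes the annotation gives 1 exon and no untranslated region, with a length of 204 to 411 bases. The exceptions were his-35, his-37, his-41, C50F4.6 and his-57, each with at least 1 annotated transcript that has an intron and a 3' untranslated region.

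Many copies are so alike that their reads cannot be assigned. On deposited TPM (a level per length of transcript, relative to the whole library), 26 of the genes fell into 11 groups whose members differed by at most 10% in at least 25 libraries. The largest such group was the H2A set his-19, his-21, his-51 and his-53, spread over K06C4 and F07B7. The H4 genes his-10, his-14 and his-26 formed another, as did the H2A genes his-12, his-16 and his-43 and the H3 genes his-9 and his-13. Counting each group as 1, the 60 genes held 45 distinct profiles under this rule, so a count of genes below overstates the number of independent measurements. The rule can miss copies, so 45 may also be too many. The H2B genes his-48, his-58 and his-66 count apart. They stood at 26.4, 24.3 and 25.8 deposited TPM in TOP-1 replicate 2 without auxin, and at 83.0, 76.3 and 70.4 in TOP-2 replicate 1. Whether they share reads was not tested.

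Depth, estimated from the steps of the deposited FPKM values, was 6.27 to 23.4 M fragments per library. The 4 TOP-2 libraries of replicate 1 and the 2 L2/L3 libraries of the DPY-27 strain stood apart, with 6.27 to 10.3 M fragments against 12.69 to 23.4 M, and a median TPM of 5.10 to 6.83 against 1.27 to 2.53. In the labels their library identifiers begin with AM, as do those of the mixed-stage DPY-27 libraries, while all others begin with AKM. The labels do not say what the prefix stands for. Defining markers of adults and of sperm were near 0 in every library, with summed scaled TPM of at most 2.00 and 2.37. Levels below are scaled TPM, that is TPM after median-ratio scaling between libraries. Of the 60 genes, 59 passed the filter for testing (TPM of 1 or more in 2 or more libraries) and only his-33 did not. The members took 0.0894% to 0.234% of all TPM in a library.

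Transcripts of the C50F4 cluster made up most of the histone signal. The H4 gene his-37 (C50F4.7) averaged 459.7 scaled TPM over the 27 libraries, the H2A gene his-35 (C50F4.13) averaged 378 and the H2B gene his-41 (C50F4.5) averaged 167. The next member was the H4 gene his-60 (F55G1.11) with 24.3, followed by the H2B genes his-48 (23.3) and his-66 (22.8), the H2A gene his-3 or T10C6.12 (21.9), the H2B gene his-58 (21.1), the H2B gene his-11 (19.5) and the H4 gene his-5 (18.4). The 3 abundant genes are those that, besides C50F4.6 and his-57, have an annotated intron and 3' untranslated region. How their transcripts end was not tested. Together they held 47.4% to 86.5% of the summed level of the 60 genes. C50F4.6, in the same cluster, stood at 0.253 to 2.85.

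In the TOP-1 strain his-37 stood at 296, 379, 529 and 618 scaled TPM at 0, 30, 60 and 120 min in replicate 1 and at 348, 546, 417 and 504 in replicate 2. The TOP-2 strain had 354, 303, 385 and 472 in replicate 1 and 376, 537, 685 and 496 in replicate 2. CA1200 had 523, 647, 731 and 485 in replicate 1 and 333, 388 and 437 at 0, 30 and 120 min in replicate 2. All 27 libraries lay between 296 and 731, and the strains overlapped.

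The H2A gene his-35 separated the libraries more sharply. On scaled TPM it stood at 76.2 to 151 in the 6 libraries that stood apart, against 283 to 699 in the other 21, with no overlap. On deposited TPM, before scaling, his-35 stood at 175 to 269 in the 6 and 241 to 544 in the others, so the ranges overlapped. Its divergent neighbour his-41 stood at 86.9 to 146 scaled TPM in those 6 libraries and at 125 to 238 in the others, so its ranges overlapped. On deposited TPM his-41 ran the other way, at 151 to 285 in the 6 libraries and 107 to 210 in the others. The ratio of his-35 to his-41, both per length, was 0.777 to 1.35 in the 6 libraries, against 1.93 to 3.34 in the other 21. The H3 gene his-42 was the only other member, of 2 in all, whose ranges of scaled TPM in the 6 and the 21 libraries did not overlap, at 0 to 0.599 against 0.614 to 6.30. It was near the floor, with an estimated 0 to 4.00 fragments in the 6 libraries, and on deposited TPM its ranges overlapped. On scaled TPM both his-35 and his-42 were lower in the 6 libraries. These 2 of 59 members are a smaller share than the 6.58% of all genes tested that were lower there without overlap. Depth, and the larval cuticle and seam marker list at 1869 to 2577 against 4837 to 11098, moved with this split. So did the summed replacement, linker and variant histone genes, at 650 to 1060 against 1335 to 2758. The part of these in the split was not tested.

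The other 57 genes were low. Outside C50F4 the median of the gene averages was 6.86 for the 14 H2A genes, 10.7 for the 14 H2B genes, 5.59 for the 14 H3 genes and 6.60 for the 13 H4 genes. Within the divergent pairs the H4 gene had the higher average in 11 of 13 H3-H4 pairs, and the H2B gene in 8 of 15 H2A-H2B pairs. In B0035, for example, his-48 (H2B) averaged 23.3 and its neighbour his-47 (H2A) 5.73, and in F55G1 his-60 (H4) averaged 24.3 and his-59 (H3) 9.84. In F07B7 the order was the other way, with his-51 (H2A) at 14.5 and his-52 (H2B) at 8.39, but both belong to groups of shared copies. Low averages were found in F17E9, where his-33 (H2A) averaged 0.190 and his-34 (H2B) 0.721, and in T10C6, where his-1 (H4) averaged 1.66 and his-2 (H3) 1.68. The highest member of each further cluster averaged 14.5 in F07B7 (his-51), 14.8 in K06C4 (his-18), 14.7 in F08G2 (his-44), 9.53 in F17E9 (his-32) and 3.06 in F22B3 (his-64).

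**Figure D1:**
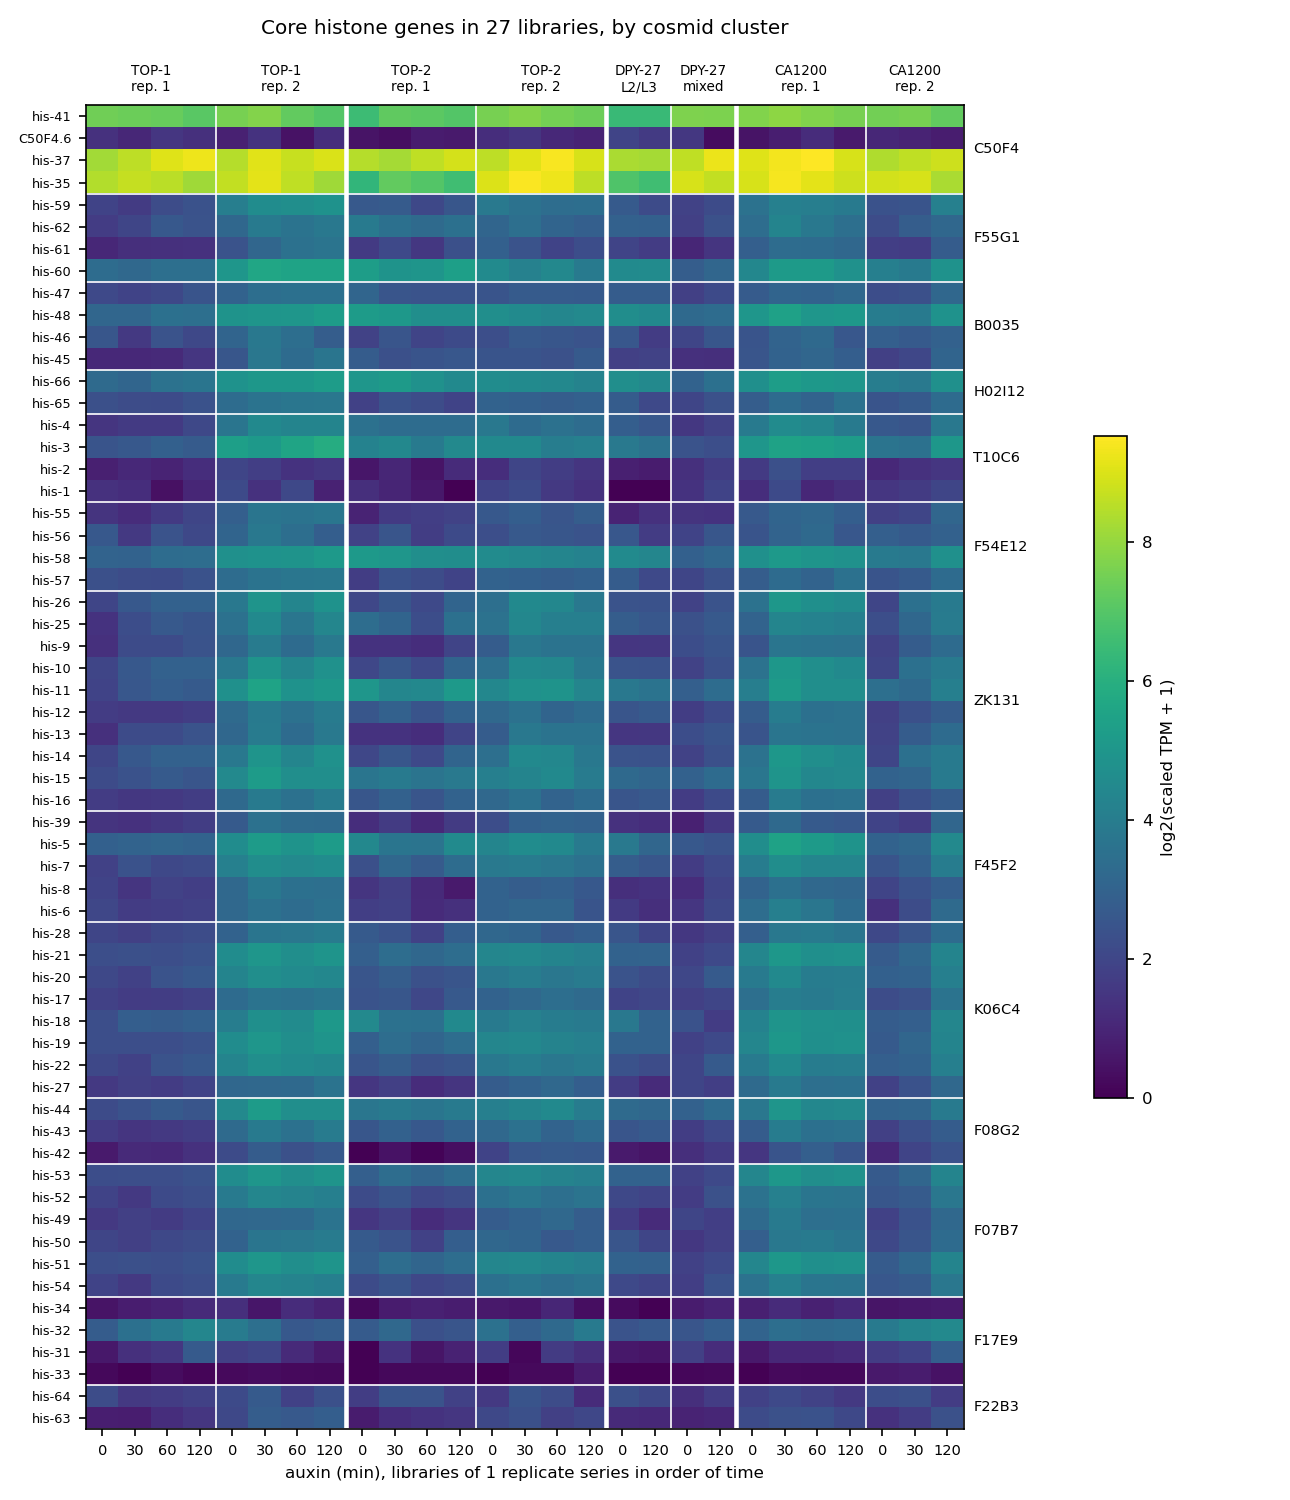
Level of each of the 60 genes (rows, grouped by cosmid cluster) in each of the 27 libraries (columns, by strain, replicate series and minutes of auxin), as log2(scaled TPM + 1) on the colour scale. The his-37, his-35 and his-41 rows are the brightest throughout, and the columns of TOP-1 replicate 1 and of the mixed-stage DPY-27 libraries are dark for the other clusters.

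Among the low genes, replicate series of the same strain differed widely. In the TOP-1 strain, replicate 2 was above replicate 1 in 58, 58, 54 and 52 of the 60 genes at 0, 30, 60 and 120 min. The median difference, replicate 2 minus replicate 1, was 1.60, 2.103, 1.62 and 1.77 on the log2(scaled TPM + 1) scale, while the median over all 14271 genes tested was 0 at 0 min. At 0 min, 49 of the 60 genes were higher in replicate 2 by at least 1 on this scale and 0 were lower by at least 1, against 8.93% higher and 7.19% lower of all genes tested. The 56 genes outside C50F4 summed to 720.4, 1044, 881 and 1011 scaled TPM over time in TOP-1 replicate 2 and to 174, 185, 229 and 250.4 in replicate 1, a ratio of 3.85 to 5.63.

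The series difference ran through all 4 histone classes. At 120 min in the TOP-1 strain, the H2A genes outside C50F4 summed to 289.8 in replicate 2 and 48.01 in replicate 1, the H2B genes to 305 and 75.7, the H3 genes to 163 and 57.7 and the H4 genes to 244 and 66.7. For single genes, his-3 (H2A) stood at 40.9, 34.8, 45.6 and 57.7 over time in replicate 2 and at 4.52, 5.20, 6.62 and 5.72 in replicate 1. The H2B gene his-11 stood at 26.6, 44.5, 27.8 and 32.1 in replicate 2 and at 2.75, 4.97, 6.132 and 5.45 in replicate 1. The series did not overlap for either gene.

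The C50F4 genes did not follow this split, and the F17E9 cluster followed it at 0 min but was in the reverse order at 60 and 120 min. The 4 genes of C50F4 summed to 940.4, 1313, 957 and 914 over time in TOP-1 replicate 2 and to 813, 951, 1054 and 1041 in replicate 1, a ratio of 0.877 to 1.38. In F17E9 the H3 gene his-32 stood at 14.4, 10.2, 5.17 and 5.91 in replicate 2 and at 5.75, 10.3, 13.9 and 19.9 in replicate 1. Its H4 neighbour his-31 stood at 2.45, 2.99, 1.22 and 0.629 in replicate 2 and at 0.544, 1.499, 1.93 and 5.50 in replicate 1. Both were thus lower in replicate 2 at 60 and 120 min, while his-3, his-11 and the class sums were higher there.

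In CA1200 the series ran in the opposite order for the low genes. Replicate 2 was above replicate 1 in 8, 5 and 19 of the 60 genes at 0, 30 and 120 min, with median differences of -0.84, -1.44 and -0.24. The 56 genes outside C50F4 summed to 279, 347 and 675 in CA1200 replicate 2 and to 587, 1031 and 803 at the same times in replicate 1. Again his-32 ran against the rest, with 13.6, 18.8 and 21.4 in replicate 2 and 7.16, 9.83 and 9.24 in replicate 1. On scaled TPM, replicate 2 of the TOP-2 strain was above replicate 1 in 48, 50, 53 and 46 genes at the 4 times. The median differences were 0.79, 0.73, 0.84 and 0.46. Before scaling the sum ran the other way, with the 60 genes at 0.217%, 0.184%, 0.203% and 0.234% of all TPM in replicate 1. In replicate 2 they took 0.115%, 0.128%, 0.141% and 0.131%. TOP-2 replicate 1 is one of the series that stood apart. Its germline markers summed to 96.9, 109, 101 and 64.4 scaled TPM over time, against 39.4, 41.4, 34.3 and 34.5 in TOP-2 replicate 2. On scaled TPM this is the reverse of the order of the histone genes, but their order depends on the scaling.

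The DPY-27 strain differed between stages rather than numbered replicates. The 56 genes outside C50F4 summed to 287 after 120 min and 336 without auxin in its L2/L3 libraries, and to 222 and 168 in its mixed-stage libraries. On scaled TPM the 3 abundant C50F4 genes ran the other way. They summed to 486 after 120 min and 523 without auxin in the L2/L3 libraries, and to 1202 and 1088 in the mixed-stage libraries. On deposited TPM, before scaling, these genes did not share a direction. After 120 min and without auxin his-37 stood at 598 and 549 in L2/L3, against 503 and 329 in mixed-stage larvae. In the same order his-35 stood at 187 and 203, against 331 and 410, and his-41 at 171 and 151, against 165 and 172. Both L2/L3 libraries are among those that stood apart.

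Genes of S phase did not move with the histone series in the TOP-1 strain. The 31 S-phase genes examined, among them the MCM helicase subunits, pcn-1 (PCNA) and the ribonucleotide reductase genes rnr-1 and rnr-2, summed to 444, 392.1, 368 and 440.1 scaled TPM over time in replicate 2 and to 486, 411, 379 and 401 in replicate 1. The stem-loop binding protein gene cdl-1 stood at 16.8, 13.7, 15.2 and 16.5 in replicate 2 and at 17.0, 16.3, 15.2 and 17.2 in replicate 1. The germline marker list did move with it, with sums of 103, 69.1, 78.9 and 99.3 in replicate 2 and 38.6, 36.1, 30.9 and 26.7 in replicate 1, over 10 of 10 markers measured. In CA1200 that list summed to 32.6, 34.9 and 32.4 in replicate 2 and to 23.4, 25.2 and 30.4 in replicate 1, the reverse order of the histone genes. Its part in the histone difference was not tested.

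**Figure D2:**
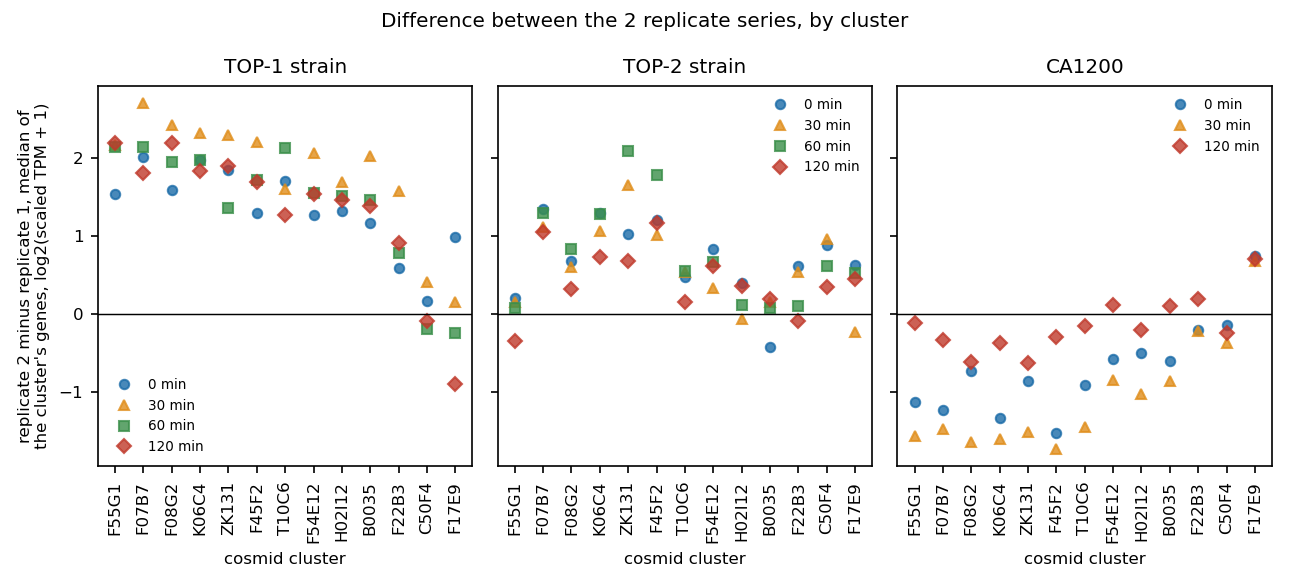
Median difference between replicate 2 and replicate 1 over the genes of each cosmid cluster, in log2(scaled TPM + 1), for the TOP-1 strain, the TOP-2 strain and CA1200, with 1 symbol per time of auxin. In the TOP-1 strain 11 clusters lie above 0 at every time while C50F4 lies near 0, and in CA1200 most clusters lie below 0 while F17E9 lies above it.

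The main comparison asked whether core histone transcripts changed when the tagged protein was degraded. After 120 min of auxin in the TOP-1 strain no member passed the threshold (limma, Benjamini-Hochberg adjusted p under 0.05 over all genes tested), and none had an unadjusted p under 0.05, while 1.94% of all genes were called. The median change of the 59 genes was 0.37 and 52 were positive, against a median of 0.04 and 53.5% positive over all genes. Of the 59, 45 were higher at 120 min in both replicate series, against 37.01% of all genes. The 60 genes summed to 1292 and 1924 scaled TPM after 120 min in replicates 1 and 2, against 988 and 1661 without auxin. The sum was thus higher in both series, with a log2 difference of 0.30. The SD between the libraries of a group was 0.47 (n = 2 each). That SD holds the gap between the series and does not measure the spread of the change within them. At 30 and 60 min the median changes in the TOP-1 strain were 0.20 and 0.25, each with 52 of 59 genes positive. No member was called at either time, where 0.00701% and 0.603% of all genes were called.

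The largest positive change in the TOP-1 strain was that of his-26, an H4 gene of ZK131 that shares its reads with his-10 and his-14. It stood at 6.68 and 28.002 scaled TPM in replicates 1 and 2 after 120 min, against 2.94 and 13.1 without auxin, a change of 1.00 ± 1.05 (SE, adjusted p = 0.818 in limma). It was higher after auxin within each series, but the groups overlapped. The H3 gene his-9 stood at 4.37 and 13.4, against 1.52 and 8.13, a change of 0.88 ± 0.98 with an adjusted p of 0.834 in limma. The H3 gene his-42 of F08G2 stood at 1.59 and 5.25, against 0.614 and 3.48, a change of 0.58 ± 1.00 with an adjusted p of 0.923 in limma. The largest negative change was that of his-1 (H4), which stood at 1.04 and 0.900, against 1.56 and 3.44, a change of -0.78 ± 0.57 with an adjusted p of 0.656 in limma.

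Because same-numbered libraries pair, the fit with the replicate block bears on these genes. With it, 6 members were called higher in the TOP-1 strain at 120 min, namely his-9, his-13, his-10, his-14, his-26 and his-42, with adjusted p of 0.0290 to 0.0490 in limma. All lie on chromosome II in ZK131 and F08G2, and the first 5 are copies that make up 2 shared profiles. Under the same rule 11.4% of all genes tested were called higher, and 6 of 59 members, 10.2%, is no larger a share. Leaving out the 0 min library of replicate 1 turned his-42 and his-9 to -0.16 and -0.05 in the fit without the block. That fit sets both series at 120 min against replicate 2 alone at 0 min. The gap between series thus enters its estimate, and it gives no check of the change within series. Within each series both genes were higher after 120 min.

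The abundant C50F4 genes split in the TOP-1 strain. At 120 min his-37 stood at 618 and 504, against 296 and 348 without auxin, a change of 0.79 ± 0.42 with an adjusted p of 0.455 in limma (0.0556 with the block). In contrast his-35 stood at 287 and 283, against 339.9 and 402, and his-41 at 135 and 125, against 176 and 189. Their changes were -0.37 ± 0.90 and -0.48 ± 0.34, with adjusted p of 0.958 and 0.635 in limma (0.180 and 0.0603 with the block). The groups did not overlap for any of the 3 genes, but none was called with or without the block. In all, 4 of 59 members did not overlap between 120 min and no auxin in this strain, his-1 being the fourth, while 44.2% of all genes tested did not. The ratio of his-37 to his-35 was 2.15 and 1.78 after 120 min, against 0.871 and 0.866 without auxin. This ratio, chosen after its values were seen, was higher at 120 min than without auxin in 8 of 8 series, CA1200 included, where it was 1.09 and 1.39 after 120 min, against 1.08 and 0.723 without auxin.

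In the TOP-2 strain no member was called at 30, 60 or 120 min, with or without the block. Over all genes 0.0% were called at each time, and 0.021%, 0.00701% and 0.0% with the block. At 30 min 1 member had an unadjusted p under 0.05, as did 205 of all genes tested, and at 60 and 120 min none had. The median changes were 0.25, 0.04 and 0.08 at 30, 60 and 120 min, with 44, 31 and 40 of 59 genes positive. The 60 genes summed to 1143 and 1588 after 120 min, against 949 and 1659.9 without auxin, so the series moved in opposite directions. The largest changes were 0.70 ± 0.98 for his-9 and -0.92 ± 0.57 for his-1, both with an adjusted p of 1 in limma. Replicate 1 of this strain stood apart from the other libraries, and without it the comparison at 120 min rests on 1 library per time, which gives no check of the result.

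In the DPY-27 strain no member was called at 120 min, with or without the block, while 0.0491% of all genes were called (0.126% with the block). The block adds no term for this strain, so here it changes only the error estimate that all strains share. The median change was 0.13, with 41 of 59 genes positive, but 10 were higher and 9 lower in both stages, against 25.4% and 29.1% of all genes. Germline markers summed to 89.97 after 120 min and 93.99 without auxin in the L2/L3 libraries, and to 24.2 and 26.6 in the mixed-stage ones, and their part was not tested. The 60 genes summed to 775 in L2/L3 and 1424 in mixed-stage larvae after 120 min, against 861 and 1258 without auxin. The largest changes were 0.42 ± 0.95 for the H2B gene his-8 and -0.77 ± 0.41 for C50F4.6, both with an adjusted p of 1 in limma.

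In CA1200, which has no tagged target, most low histone genes had positive changes after auxin. At 30 min all 59 genes had a positive change, with a median of 0.41, against 47.9% of all genes and a median of -0.01. At 120 min 55 of 59 were positive with a median of 0.79, and 50 were higher in both series, against 30.9% of all genes. At that time 29 members lay above the 95th percentile of all changes in this strain (0.79), while none of the TOP-1 members lay above that percentile in theirs (1.13). No member was called at 30, 60 or 120 min without the block, none had an unadjusted p under 0.05, and 0.0%, 0.0% and 0.00701% of all genes were called. The change at 60 min, a median of 0.94, rests on the lone library of replicate 1, the series with the higher histone level.

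The changes in CA1200 were unequal between clusters and series. ZK131 summed to 89.001, 233, 182 and 174 scaled TPM at 0, 30, 60 and 120 min in replicate 1 and to 39.99, 75.4 and 115 at 0, 30 and 120 min in replicate 2. K06C4 summed to 111, 179, 145 and 149 in replicate 1 and to 39.3, 49.1 and 118 in replicate 2. In replicate 1 both clusters were highest at 30 min, and in replicate 2 both were highest at 120 min. The 3 abundant C50F4 genes summed to 1118 and 899.5 after 120 min, against 1216 and 975 without auxin, and so were lower in both series. The 56 genes outside C50F4 summed to 803 and 675, against 587 and 279. F22B3 was an exception among those clusters, with 5.16 and 6.29, against 6.10 and 5.31.

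The gene with the largest positive change in CA1200 at 120 min was again his-26, at 22.9 and 13.8, against 10.9 and 2.92 without auxin, a change of 1.46 ± 1.05 with an adjusted p of 1 in limma. The largest negative change was -0.41 ± 0.33 for the H4 gene his-64 of F22B3, also with an adjusted p of 1 in limma. With the replicate block 7 members were called higher, his-9, his-10, his-12, his-13, his-14, his-26 and his-42, with adjusted p of 0.0151 to 0.0495 in limma, where 1.29% of all genes were called higher. These are the 6 members called in the TOP-1 strain and the H2A gene his-12 of ZK131, and they hold 4 distinct profiles. In his-42 the values were 4.51 and 4.27 after 120 min, against 1.84 and 1.104 without auxin, with no overlap. This held for 30 of 59 members in CA1200 and for 39.5% of all genes tested, in either direction. Of the 59 members, 28 were higher after auxin without overlap, against 19.2% of all genes tested.

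**Figure D3:**
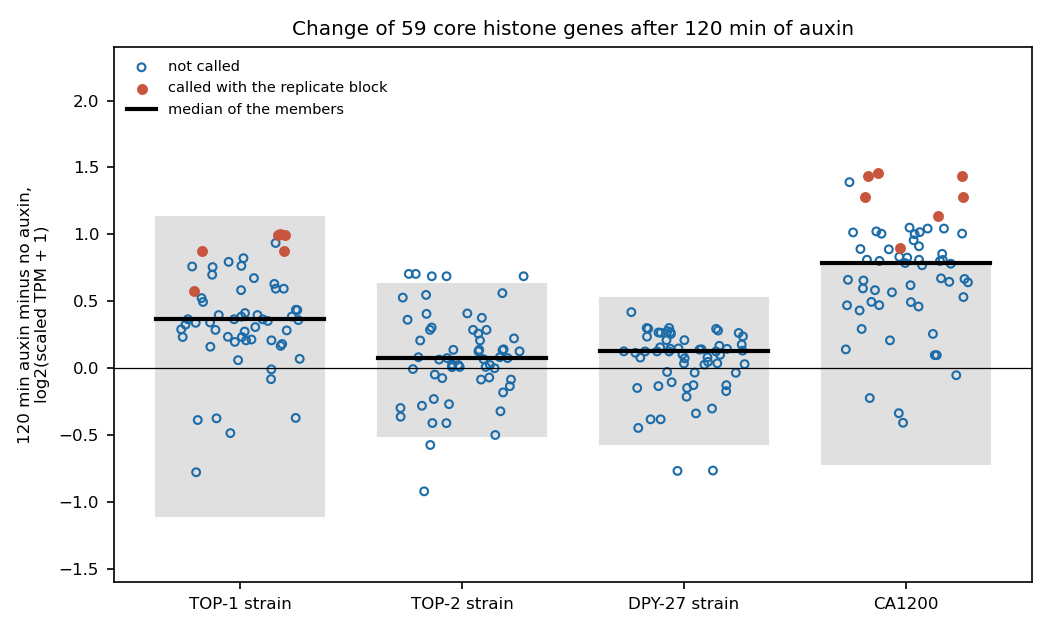
Change of each of the 59 tested genes between 120 min of auxin and no auxin in log2(scaled TPM + 1), by strain, with filled points for genes called with the replicate block, a bar for the median of the members and a grey box from the 5th to the 95th percentile of all 14271 genes tested. The medians are 0.37 in TOP-1, 0.08 in TOP-2, 0.13 in DPY-27 and 0.79 in CA1200, and the filled points number 6 in the TOP-1 strain and 7 in CA1200.

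Whether strains differed in their 120 min change was tested directly, and no member was called in any of these 4 contrasts, with or without the block. The change in CA1200 enters 3 of them, so they share its libraries. The TOP-1 change minus the CA1200 change had a median of -0.41, with 6 of 59 genes positive. The TOP-2 change minus the CA1200 change had a median of -0.75, with 8 positive, and the DPY-27 change minus the CA1200 change a median of -0.61, with 4 positive. No member had an unadjusted p under 0.05 in these 3 contrasts, where 463, 108 and 134 of all genes tested did. The TOP-1 change minus the TOP-2 change had a median of 0.26, with 52 of 59 positive. In each contrast 0.0% of all genes were called, and with the block 1.75%, 0.0%, 0.014% and 1.67%.

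**Figure D4:**
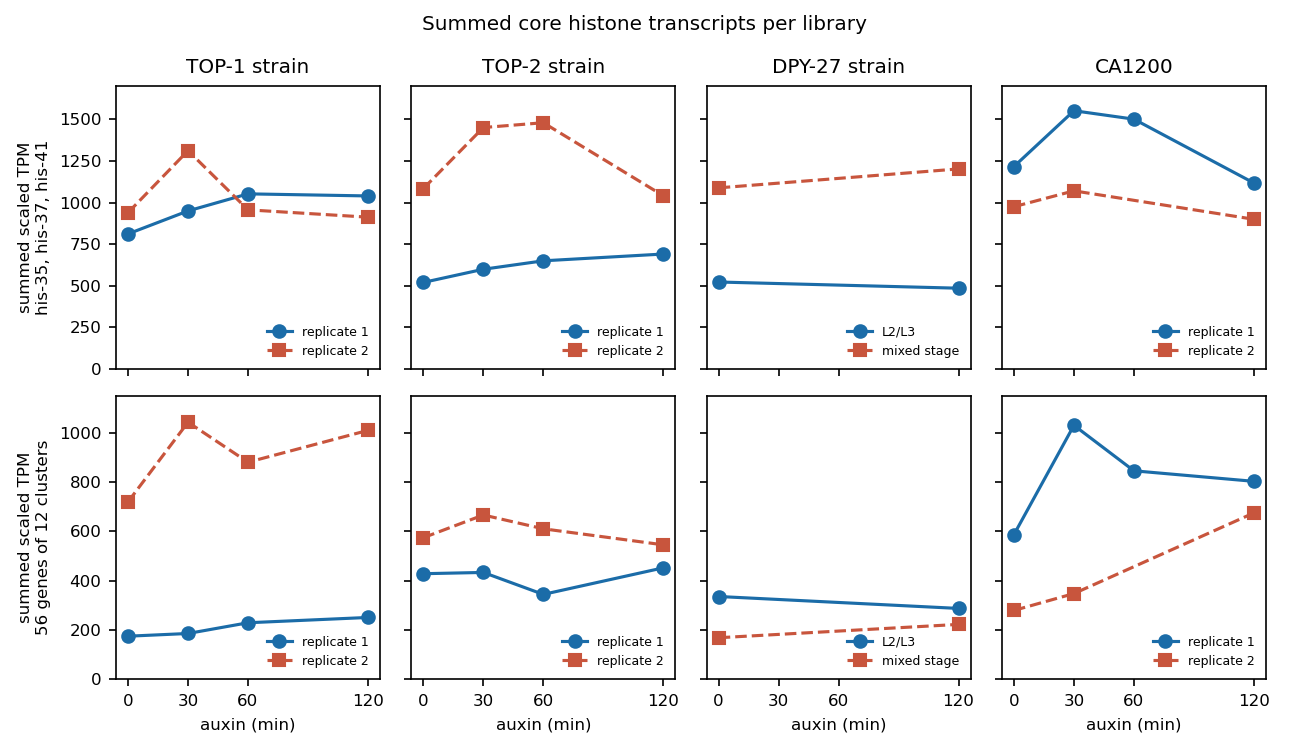
Summed scaled TPM of his-35, his-37 and his-41 (top row) and of the 56 genes of the other 12 clusters (bottom row) against minutes of auxin, with a column for each strain and a line for each replicate series, or for each stage in the DPY-27 strain. In the bottom row TOP-1 replicate 2 lies between 720.4 and 1044 and TOP-1 replicate 1 between 174 and 250.4, a wider gap than any change over time within a series of that strain.

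Each degron strain was also compared with CA1200 at the same time. Without auxin no member was called in the TOP-1 strain, where the median difference was -0.08 and 24 of 59 genes were positive, nor in the TOP-2 strain, where the median was -0.02 and 28 were positive. At 120 min the medians were -0.39 and -0.66, with 4 and 3 genes positive, and again no member was called, where 0.245% and 0.0% of all genes were called (0.0% in both without auxin). The replicate block is a term within the TOP-1 strain, the TOP-2 strain and CA1200, and series of different strains are not paired. The DPY-27 strain has no such term, since its term for mixed stage is in both fits. In a comparison of strains it takes the gap between series out of the error, so its p-values cover only the spread within series and are too small for a difference between strains. With it, 5 members were called lower in the TOP-1 strain than in CA1200 at 120 min, his-17, his-19, his-21, his-51 and his-53, where 6.58% of all genes were called lower. The H3 gene his-17 stood at 2.55 and 12.1 in the TOP-1 strain, against 15.99 and 11.4 in CA1200, so the ranges overlapped.

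With the block, his-35 and his-41 were lower in the TOP-2 strain than in CA1200 without auxin, with differences of -1.24 and -0.58 and adjusted p of 0.00135 and 0.0283 in limma, where 24.0% of all genes were called in either direction. The his-35 values were 76.2 and 522, against 485 and 461, so the difference lies in replicate 1, and replicate 2 was above both CA1200 libraries. At 120 min 8 members were lower with the block, among them his-35, his-42 and the shared copies his-57 and his-65, where 4.37% of all genes were called lower. At 30 min his-35 and his-42 were called, and at 60 min his-42, where 5.47% and 1.29% of all genes were called lower.

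The DPY-27 strain was compared with CA1200 at each time in the fit with a term for mixed stage, so the estimates refer to L2/L3 larvae. That term is shared by both times, so the mixed-stage libraries and the other time also enter each estimate. No member was called, at 0 or 120 min, where 0.476% and 0.238% of all genes were called, and 3 of 59 members at each time had an unadjusted p under 0.05, as did 2972 and 2266 of the 14271 genes tested. With the block 14 members were called without auxin, 13 lower and C50F4.6 higher, and 42 were lower at 120 min. Over all genes 20.9% were lower and 24.1% higher without auxin, and 18.8% were lower at 120 min, where the 42 members are 71.2% of those tested. In the L2/L3 libraries his-35 stood at 94.97 after 120 min, against 445 and 315 in CA1200. Without auxin it stood at 118, against 485 and 461. Both L2/L3 libraries belong to the 6 that stood apart, so strain and library cannot be told apart. With the deposited TPM in place of scaled TPM, the median of all genes in these comparisons was 0.87 at 0 min and 0.85 at 120 min, against 0.04 and 0.03 on scaled TPM, and the summed member difference without auxin moved to 0.18, against -0.81 on scaled TPM.

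The authors' deposited tables give another count of the same genes, as a mean normalised signal per gene (baseMean) with DESeq2 fold changes. The 16 tables each hold 31 to 36 of the 60 members, and 30 members have a row in every table. Of the 26 members in groups of shared copies 3 have a row in every table, against 27 of the 34 others. In the authors' deposited table of the TOP-1 strain at 120 min over no auxin, baseMean was 3187 for his-41, 2931 for his-37 and 2508 for his-35, followed by 184 for his-3, 169.7 for his-59 and 145 for his-60.

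The low genes ranked differently in the deposited TPM and in baseMean. The H2B gene his-66 averaged 22.8 scaled TPM, close to his-60 with 24.3, but in the authors' deposited table its baseMean was 5.11, against 145 for his-60. The called copy his-26 averaged 12.2 scaled TPM and had a baseMean of 0.632 in that authors' deposited table, where his-42 had 1.05. How shared reads were assigned in each was not tested. No member was called in 15 of the 16 authors' deposited tables. Only 17 to 36 members had an adjusted p in a table, so the others could not be called. In the authors' deposited table of the DPY-27 strain over CA1200 at 120 min the H3 gene his-59 was lower, with a log2 fold change of -2.15 ± 0.56 (SE as given there) and an adjusted p of 0.00842 in DESeq2. It was 1 of 27 members with an adjusted p there, where 4.0% of all genes with an adjusted p were called. The authors' deposited tables of TOP-1 over no auxin called 0.579%, 2.52% and 3.64% of genes at 30, 60 and 120 min, and those over CA1200 1.06%, 0.326%, 0.119% and 1.25% at 0, 30, 60 and 120 min. The authors' deposited tables of TOP-2 over no auxin called 0.00611%, 0.0% and 0.0% at 30, 60 and 120 min, and those over CA1200 0.783%, 0.777%, 0.0% and 0.587% at the 4 times. In the authors' deposited table of DPY-27 over CA1200 without auxin 6.7% were called. In the authors' deposited table of the TOP-1 strain at 120 min, the log2 fold changes were 0.76 for his-37, -0.43 for his-35 and -0.57 for his-41, with adjusted p of 0.459, 0.825 and 0.642.

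Other histone and S-phase genes gave no call at 120 min in any strain without the block. The linker histone gene his-24 stood at 449.6 and 206 scaled TPM after 120 min in the TOP-1 strain, against 248 and 110.0 without auxin, a change of 0.88 ± 0.69 with an adjusted p of 0.695 in limma (0.0241 with the block). The H3.3 gene his-71 stood at 495 and 455, against 290.1 and 254, a change of 0.80 ± 0.62 with an adjusted p of 0.683 in limma (0.0149 with the block). The groups overlapped for his-24 and did not for his-71, and replicate 1 was the higher series in both genes, the reverse of the core histones. The H3.3 gene his-72 changed by 0.52 in the TOP-1 strain and the H2A.Z gene htz-1 by -0.13, neither called with or without the block.

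Of the 14 replacement, linker and variant histone genes tested, 4 were called higher (hil-3, hil-7, his-24 and his-71) and 1 lower (hcp-3, which encodes centromeric H3) with the block in the TOP-1 strain at 120 min, and none in the other strains. Over all genes tested the same fit called 11.4% higher and 11.5% lower. Of the 31 S-phase genes, cdk-4 was higher (0.59) and lin-35, the retinoblastoma homolog, lower (-1.32) with the block in the TOP-1 strain, a smaller share in each direction than over all genes, and none was called in the other strains. Of the 7 genes for histone mRNA processing and small-RNA factors and the 14 histone chaperone genes, none was called in any strain. The S-phase genes had median changes of -0.20 in TOP-1, -0.15 in TOP-2, -0.26 in DPY-27 and -0.23 in CA1200, with 10, 6, 6 and 10 of 31 positive, while the core histone medians were positive in all 4 strains.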

How the data were processed

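Poly(A) libraries were stranded by dUTP, per the labels' protocols. DESeq2 1.30.0, Cufflinks 2.2.1, HTSeq 0.13.5, HISAT2 2.2.1 and CASAVA 1.8 stand in the submitters' processing notes. The files of single libraries hold FPKM and TPM values per gene, deposited by the authors, per the file headers. The authors' 16 deposited comparison tables give for each gene a test score, a p-value (also adjusted), a log2 fold change and the mean normalised signal, per the file headers, and are quoted only by name. No build is stated for the files' coordinates.

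Median ratios over 12832 genes gave each library's scaling of TPM. Fold changes are on the log2(scaled TPM + 1) scale, which understates changes of low genes. limma 3.58.1 (R 4.3.3) fitted 14 group means and a mixed-stage term over 27 libraries, with trended moderated variances and 12 residual degrees of freedom. Tests were two-sided over 14271 genes in 24 comparisons, with Benjamini-Hochberg adjustment. Comparisons with CA1200 share its libraries. The replicate block adds a term in TOP-1, TOP-2 and CA1200 only. The fit was tested on simulated data. Tables and plots used Python 3.11.15, pandas 2.3.3, numpy 2.4.6 and matplotlib 3.10.9. Symbols and the gene positions used for neighbours come from RefSeq's WBcel235 annotation, matched by sequence name for 60 of 60 members. Strands, coding lengths and the exonic lengths used for depth come from the Ensembl gene models of WBcel235.

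Depth was estimated from the steps of FPKM times exonic length, and ranged from 6.27 to 23.4 M fragments. The median member outside the 3 abundant C50F4 genes had an estimated 16.1 to 153 fragments per library. Same-numbered libraries deviated together between 0 and 120 min (correlations over genes of 0.63 in TOP-1, 0.82 in TOP-2, 0.80 between stages of DPY-27 and 0.38 in CA1200), so the numbers were taken to pair libraries, and the fit with the replicate series as a block is given where it changes a call.

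Named genes were the members of highest mean level overall and in each cluster, members with the largest changes at 120 min in each strain, called members, and called pathway genes with cdl-1, htz-1, his-24, his-71 and his-72. Other members are named to show a shared profile, a divergent neighbour or a series difference. The members, lists and rules were chosen with earlier results of these data known. Alternatives were deposited TPM, FPKM, another pseudocount, other filters, no variance trend, the compared strains alone, the block, and fits without single libraries, the 6 that stood apart or the mixed-stage libraries.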

Additional observations from a re-analysis of the deposited data

Results flagged for a closer look

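For the H4 gene his-1, both TOP-1 libraries were lower after 120 min than their own series without auxin, and both CA1200 libraries were higher. The mean TOP-1 change minus the mean CA1200 change was -1.03 on the log2(scaled TPM + 1) scale. Both TOP-2 libraries were also lower, and the mean TOP-2 change minus the mean CA1200 change was -1.18. For the H2B gene his-8, both TOP-2 libraries were lower after 120 min and both CA1200 libraries higher, and the mean TOP-2 change minus the mean CA1200 change was -1.07. In limma none of these 3 differences was called, with an adjusted p of 1 for each, and 0.401, 0.759 and 0.685 with the replicate block. The levels of his-1 were low, at most 3.44 scaled TPM in any library of the TOP-1 strain.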

How the results depend on the processing

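With the replicate block, members called numbered 6 in TOP-1 and 7 in CA1200 at 120 min, and against CA1200 2 and 14 in TOP-2 and DPY-27 without auxin and 5, 8 and 42 in TOP-1, TOP-2 and DPY-27 at 120 min, where none was called without it. Fitting only the compared strains called 4 and 6 members in DPY-27 against CA1200 at 0 and 120 min. The share of all genes called by that fit is not reported here, so these counts cannot be weighed against it. With deposited TPM, the summed difference from CA1200 without auxin was 0.26 in TOP-2 and 0.18 in DPY-27 (log2), against -0.26 and -0.81 on scaled TPM. Over fits that left out 1 library, the TOP-2 change of his-9 at 120 min ranged from -0.14 to 1.55, and the TOP-1 changes of his-42 from -0.16 to 1.32 (also -0.06) and of his-9 and his-13 from -0.051 to 1.80. Leaving out 1 library of a pair lets the gap between series into the estimate. These ranges therefore do not measure the spread of the change within series. The causes of the other shifts were not tested. The other alternatives run called no member in the comparisons examined. Against CA1200 the block leaves out the gap between series. The median member outside the 3 abundant genes had an estimated 16.1 to 153 fragments per library, and how that depth bears on the calls was not tested.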
